A study of Mus musculus with 16 samples.

Results

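The genes described here are those whose RNA level differed between *Dbx2*-NSPCs and *GFP*-NSPCs in opposite directions in replicates 1 to 4 and in replicates 5 to 8. They were chosen by the measured values themselves: for every gene with a mean of at least 10 CPM (reads of a gene scaled to the same library total, as deposited) over the 16 samples, the mean log2(CPM + 0.5) of *GFP*-NSPCs was subtracted from that of *Dbx2*-NSPCs within each set of replicates, and a gene was kept when the differences had opposite signs and both were at least 0.6 in size. Of 30386 genes in the deposited table, 8651 reached 10 CPM and 134 met the rule. Of these, 88 were higher in *Dbx2*-NSPCs in replicates 1 to 4 and lower in replicates 5 to 8, and 46 were lower in replicates 1 to 4 and higher in replicates 5 to 8. Both differences and the gap between them were used by the rule and are given for the members as a description, with no test. The level of a gene in replicates 1 to 4 against 5 to 8, averaged over the transgenes, did not enter the differences and was tested.

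NSPCs are neural stem/progenitor cells, here cultured from the subventricular zone of the brain of C57BL/6 J/Babr mice of 3 months of age. All samples carried a constitutive transgene, either *Dbx2*, a homeobox transcription factor, or *GFP* as the control. There were 8 samples of each, numbered 1 to 8 in the labels, all from non-adherent cultures. The study's methods describe 2 pairs of lines derived earlier, each with 4 independent experiments, but the labels do not say which numbers belong to which pair, so the sets are called here by their replicate numbers only. A difference between the sets therefore cannot be told apart from a difference between lines. Within a pair the *Dbx2*-NSPCs and *GFP*-NSPCs were also separate transgenic lines. The differences between the transgenes given below, within either set, therefore cannot be told apart from differences between lines either.

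In such cultures, stem cells, activated progenitors and young neuroblasts can coexist, and the Notch pathway, cell adhesion molecules and lipid-handling genes of astroglial type help to keep the progenitor state. *Hes5* is a transcriptional repressor activated by Notch, *Dll3* a divergent Notch ligand that acts inside the cell, protocadherins are cell-cell adhesion proteins, and apolipoprotein E, the product of *Apoe*, carries lipids between cells of the brain.

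The libraries gave 1803928 to 3293285 reads on genes per sample, so that 3 reads, taken as the floor, were worth 0.911 to 1.66 CPM; this floor covers counting error only, since duplicate reads of 1 molecule could not be told from separate molecules. *Dbx2* itself, at chr15:95623563-95655960 (GRCm38), was at 171.22, 105.11, 116 and 89.31 CPM in *GFP*-NSPC replicates 1 to 4 and at 232.13, 168.44, 157.28 and 135.99 CPM in *Dbx2*-NSPC replicates 1 to 4. In replicates 5 to 8 it was at 31.58, 30.67, 34.15 and 39.48 CPM in *GFP*-NSPCs and at 155.22, 114, 137.69 and 138.09 CPM in *Dbx2*-NSPCs. The transgenes overlapped in replicates 1 to 4 and did not in replicates 5 to 8, and *Dbx2* was no member because it was higher with the transgene in both sets. The stem cell and astroglial marker list summed to between 6887 and 12939 CPM over all samples, and the microglia, ependymal and endothelial lists to at most 25.4, 57.8 and 66.8 CPM, with *Tmem119*, *Tyrobp*, *Trem2*, *Cldn5* and *Cdh5* at 0 in every sample.

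*GFP*-NSPC replicate 1 stood apart from the other *GFP*-NSPC samples, mainly in the members at the end of chromosome 4 described below. In 64 of the 134 members, 47.8%, it lay nearer to the mean of *Dbx2*-NSPC replicates 1 to 4 than to the mean of *GFP*-NSPC replicates 2 to 4, against 0 to 22 members for each of the 15 other samples in the same comparison. At the end of chromosome 4 it did so in 46 of 59 members. In the other members that were higher and then lower it did so in 4 of 29, and *GFP*-NSPC replicate 4 in 5. In those lower and then higher it did so in 14 of 46, as did *Dbx2*-NSPC replicate 1. Without *GFP*-NSPC replicate 1 the rule gave 150 members, 108 higher and then lower and 42 lower and then higher, and 127 of the 134 were among them. Where this library moved a result below, the value without it stands beside it.

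The differences ran from 0.61 to 4.81 in replicates 1 to 4 and from -6.42 to -0.61 in replicates 5 to 8 among the 88 genes, with medians of 0.82 and -1.04. Among the 46 genes they ran from -2.70 to -0.61 and from 0.63 to 4.51, with medians of -0.90 and 1.22. Over all 8651 genes the medians were -0.06 and -0.03. Just inside the threshold were *Peak1*, at 0.66 and -0.61, and *Acap3*, at 0.61 and -1.13, and just outside it *Rpl22*, at 0.60 and -0.98, and *Cdc42*, at 0.60 and -0.98. In the other direction *Csmd2*, at -0.61 and 2.22, and *Rprm*, at -0.62 and 0.64, were inside, and *Flot2*, at -0.59 and 0.97, and *Ttyh1*, at -0.58 and 1.22, were outside. In 86 members every *Dbx2*-NSPC sample lay on 1 side of every *GFP*-NSPC sample in both sets, as did 9.44% of the 8651 genes in either direction; since the rule chose the members for this, nothing is read from it. For the background of the rule's own contrasts, limma called 20.5% of the 12533 tested genes between the transgenes in replicates 1 to 4, 20.7% in replicates 5 to 8, and 9.44% for the gap between these differences. All 134 members were among the tested genes.

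**Figure D1:**
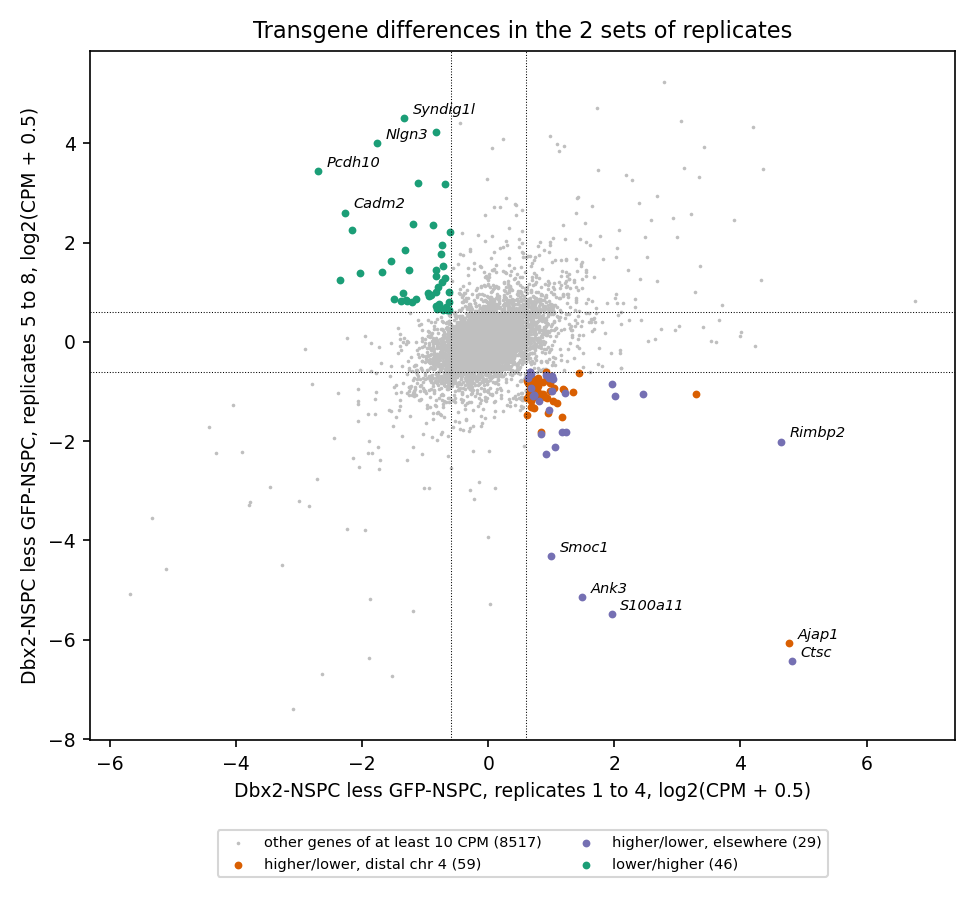
Difference between *Dbx2*-NSPCs and *GFP*-NSPCs on the log2(CPM + 0.5) scale in replicates 1 to 4 (x axis) and 5 to 8 (y axis) for the 8651 genes of at least 10 CPM, with the members in colour and the thresholds of 0.6 dotted. The 88 members in the lower right reach 4.81 and -6.42 at *Ctsc*, and the 46 in the upper left reach -2.70 in replicates 1 to 4, at *Pcdh10*, and 4.51 in replicates 5 to 8, at *Syndig1l*.

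The upstream sequences of the leading member in each direction, *Ctsc* and *Pcdh10*, and of *Hes5*, the only member on the end of chromosome 4 that went against its neighbours, are shown so that the letters can be read beside the levels. They are the 250 bases before the RefSeq start (GRCm38.p6, plus strand for all 3, 5′ to 3′). Capitals mark TGGGAA, the core recognised by the Notch effector RBPJ, on either strand. TAATTA, the core recognised by many homeodomain proteins, was searched for in the same way and was not found in these windows, which says nothing about Dbx2 itself.
*Ctsc*, chr7:88277835-88278084: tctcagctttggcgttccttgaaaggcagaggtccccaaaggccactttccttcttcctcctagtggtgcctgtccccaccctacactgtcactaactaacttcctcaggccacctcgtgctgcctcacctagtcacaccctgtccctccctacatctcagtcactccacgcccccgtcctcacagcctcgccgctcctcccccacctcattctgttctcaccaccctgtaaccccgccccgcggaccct
*Pcdh10*, chr3:45378148-45378397: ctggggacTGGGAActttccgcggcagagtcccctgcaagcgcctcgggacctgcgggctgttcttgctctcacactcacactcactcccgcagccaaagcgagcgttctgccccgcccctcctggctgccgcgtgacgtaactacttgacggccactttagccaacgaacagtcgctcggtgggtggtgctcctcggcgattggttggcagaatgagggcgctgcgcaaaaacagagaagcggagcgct
*Hes5*, chr4:154960673-154960922: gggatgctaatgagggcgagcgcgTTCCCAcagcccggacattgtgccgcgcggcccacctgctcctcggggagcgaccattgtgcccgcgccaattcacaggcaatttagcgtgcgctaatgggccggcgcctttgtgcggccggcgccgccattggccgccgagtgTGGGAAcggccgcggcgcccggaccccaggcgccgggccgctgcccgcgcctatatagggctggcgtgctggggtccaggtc

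The *Hes5* window held TGGGAA at 2 places, 226 and 82 bases before the start, the *Pcdh10* window at 1 place and the *Ctsc* window at 0. In windows from 250 bases before to 50 bases after the start, which RefSeq gave for 102 of the 134 members, TGGGAA was in 21, 20.6%, against 21.9% of 6876 genes of at least 10 CPM. TAATTA was in 1 of the 102 members, *Flna*, 0.98%, against 2.04% of those genes. Both shares are descriptions of letters in these windows.

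The members were unevenly spread over the chromosomes. Chromosome 4 carried 60 of the 88 genes that were higher and then lower, 68.2%, and 6.20% of the genes of at least 10 CPM. The other 28 of the 88 were on other chromosomes. Of the 46 genes that were lower and then higher, 4 were on chromosome 4 and 6 on chromosome X, against 4 of the 88 on chromosome X. Chromosome X carried 3.23% of the genes of at least 10 CPM, and nothing is read from these small counts. Of the 60 genes on chromosome 4, 59 lay in a single stretch from *Luzp1* to the last expressed gene, chr4:136469761-156247616. Only *Pou3f1*, a POU domain transcription factor, lay before it, at chr4:124656807-124660655.

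Along chromosome 4 the difference in replicates 1 to 4 stepped up at *Hmgn2* and the difference in replicates 5 to 8 stepped down at *Luzp1*. Both borders were placed after the values had been seen, and what follows is a description. Over the 394 expressed genes before *Hmgn2*, the median difference was -0.08 in replicates 1 to 4 and -0.03 in replicates 5 to 8. Over the genes of all other chromosomes together the medians were -0.06 and -0.03. Single chromosomes could depart from this. On chromosome 10 the medians were -0.30 and -0.52 over 438 genes, and on chromosome 1 they were -0.07 and 0.20 over 516. Over the 31 genes from *Hmgn2* to the gene before *Luzp1* (chr4:133964738-136359447), the medians were 0.73 and 0.03. Over the 111 genes from *Luzp1* to the end, they were 0.72 and -0.96. The 10 genes before *Hmgn2* had a median of -0.05 in replicates 1 to 4 and the 10 genes from it on had 0.77. The 10 genes before *Luzp1* had a median of 0.04 in replicates 5 to 8 and the 10 genes from it on had -0.86.

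**Figure D2:**
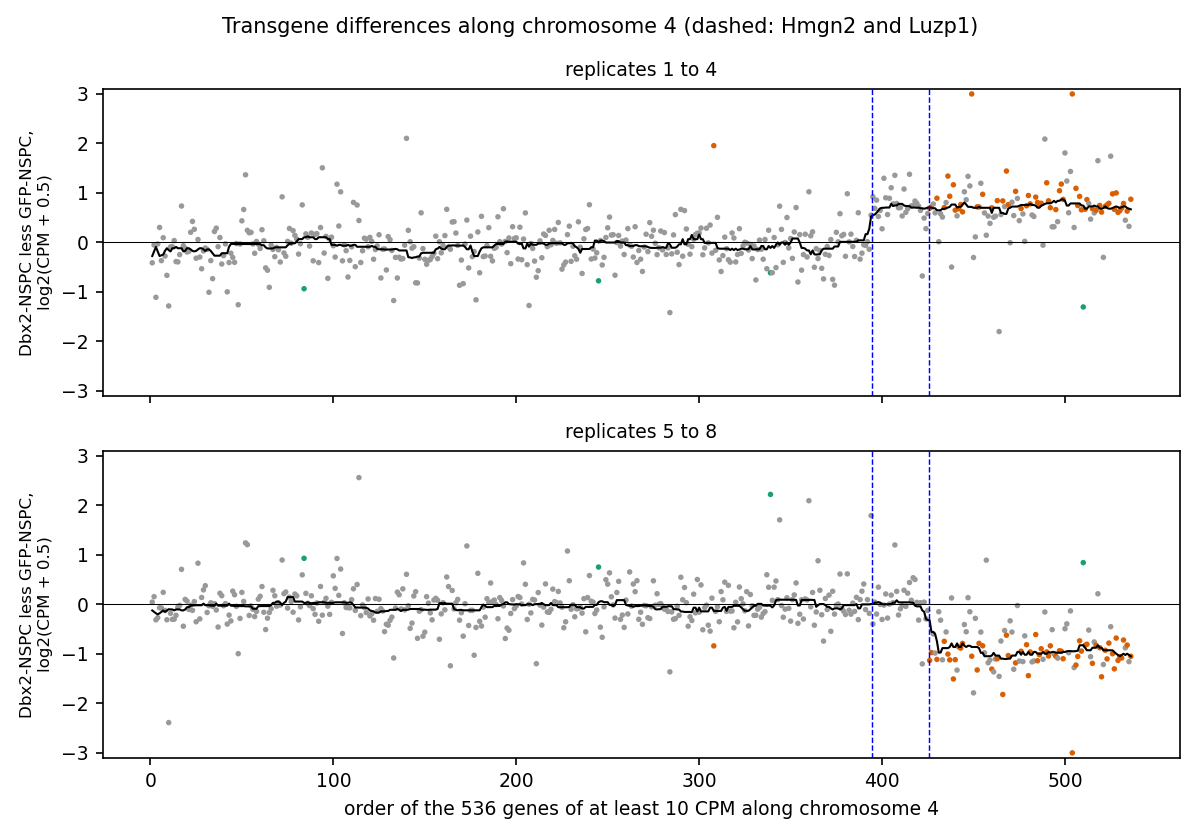
Differences between *Dbx2*-NSPCs and *GFP*-NSPCs on the log2(CPM + 0.5) scale in replicates 1 to 4 (upper panel) and 5 to 8 (lower panel), in the order of the 536 genes of at least 10 CPM along chromosome 4; the line is the running median of 21 genes, dashed lines are *Hmgn2* and *Luzp1*, members are orange (higher and then lower) or green (lower and then higher), and points beyond 3 are drawn at the edge. The line stays near 0 up to *Hmgn2*, rises to about the median of 0.73 from there in replicates 1 to 4, and falls to about -0.96 from *Luzp1* in replicates 5 to 8.

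In the stretch from *Luzp1* to the end, 101 of 111 genes, 91.0%, were higher in *Dbx2*-NSPCs in replicates 1 to 4 and lower in replicates 5 to 8, and 59 passed the threshold of 0.6 in both. On the other chromosomes 15.7% of genes had this pair of signs. The rule left out genes under 10 CPM, and in these the same stretch showed the same signs in 41 of 65 tested genes, 63.1%, against 18.2% of 3636 such genes on the other chromosomes. From *Hmgn2* to the gene before *Luzp1* there were 0 members, since the difference in replicates 5 to 8 was near 0 there. The genes that did not share the signs were 10 in number: *Hes5*, which was lower and then higher, and *Pdpn*, *Arhgef19*, *Slc25a33*, *Clcn6*, *Igsf21*, *Iffo2*, *Vwa1*, *Camk2n1* and *Fndc10*, named after their values had been seen.

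The level of the stretch was then read in every sample, as the median over its 111 genes of the log2 value less the gene's mean over the 16 samples. It was 0.18, -0.41, -0.48 and -0.52 in *GFP*-NSPC replicates 1 to 4 and 0.38, 0.46, 0.43 and 0.44 in *Dbx2*-NSPC replicates 1 to 4. In replicates 5 to 8 it was 0.43, 0.45, 0.47 and 0.41 in *GFP*-NSPCs and -0.46, -0.52, -0.48 and -0.49 in *Dbx2*-NSPCs. The 16 samples thus stood at a high level in 8, a low level in 7, and in between in *GFP*-NSPC replicate 1, and the high group held both transgenes. Genes of the stretch took 1.03% to 1.05% of all CPM in *Dbx2*-NSPC replicates 1 to 4 and 1.02% to 1.05% in *GFP*-NSPC replicates 5 to 8. They took 0.550% to 0.570% in *Dbx2*-NSPC replicates 5 to 8, 0.566% to 0.623% in *GFP*-NSPC replicates 2 to 4 and 0.913% in *GFP*-NSPC replicate 1. In the 51 genes of the stretch that were not members, *GFP*-NSPCs of replicates 1 to 4 had a level of -0.21 ± 0.34, against 0.39 ± 0.06 for *Dbx2*-NSPCs (SD, n = 4 each). The levels of replicates 5 to 8 were 0.38 ± 0.02 and -0.45 ± 0.07. The *GFP*-NSPC samples of replicates 1 to 4 ranged from -0.44 to 0.29, the highest being replicate 1.

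**Figure D3:**
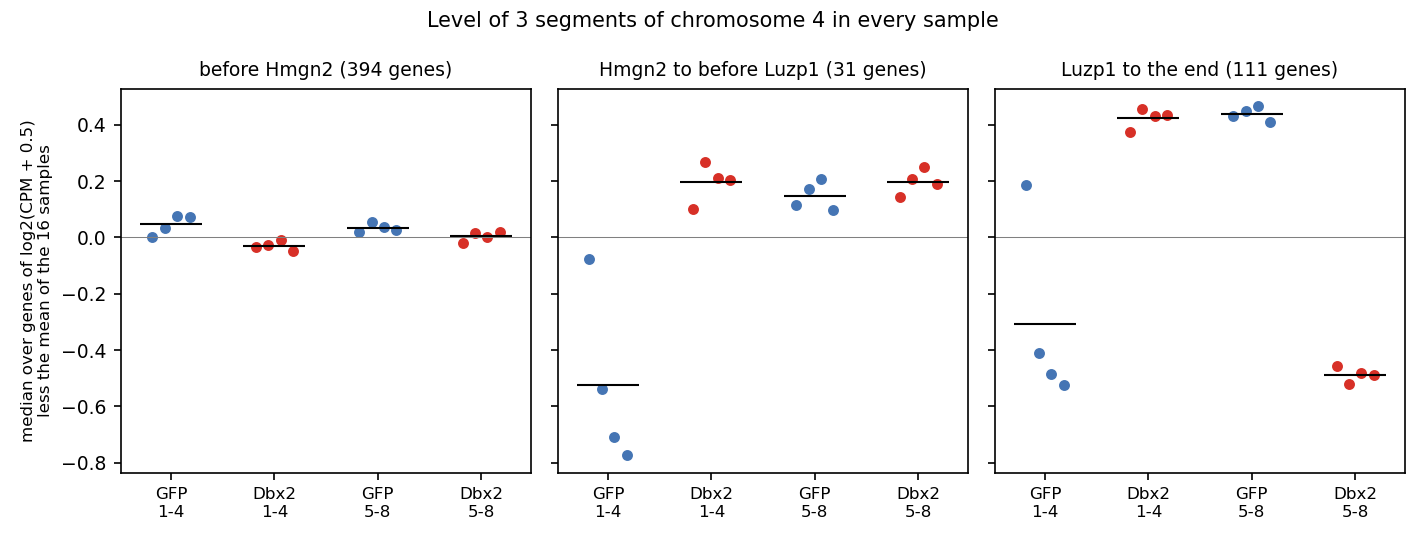
Level of 3 segments of chromosome 4 in every sample (points, blue *GFP*-NSPC and red *Dbx2*-NSPC, lines the means of 4), as the median over the segment's genes of log2(CPM + 0.5) less the mean of the 16 samples. All samples lie near 0 before *Hmgn2*, only *GFP*-NSPC replicates 1 to 4 are low in the middle segment, and from *Luzp1* on *GFP*-NSPC replicates 2 to 4 and *Dbx2*-NSPC replicates 5 to 8 lie between -0.52 and -0.41 while *GFP*-NSPC replicate 1 is at 0.18.

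From *Hmgn2* to the gene before *Luzp1* the level was -0.08, -0.54, -0.71 and -0.77 in *GFP*-NSPC replicates 1 to 4, and 0.10 to 0.27 in the 12 other samples. *GFP*-NSPC replicates 2 to 4 were the lowest there, with replicate 1 again between. Without *GFP*-NSPC replicate 1 the median difference in replicates 1 to 4 was 0.87 from *Luzp1* on and 0.89 in the middle segment, and the stretch held 75 members in place of 59. The cause of the shared level was not tested.

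The 59 members of the stretch were sorted by known role, by hand and with no test of any role. There were 12 of mitochondria, redox and sugar metabolism, among them *Pink1* and *Park7*, which guard mitochondria, *Sdhb*, a subunit of respiratory complex II, and *Pgd* of the pentose phosphate pathway; their differences were 0.61 to 1.34 in replicates 1 to 4 and -1.46 to -0.78 in replicates 5 to 8. In the 8 of chromatin and transcription, such as the histone demethylase *Kdm1a*, *Rere* and *Ski*, they were 0.70 to 1.04 and -1.44 to -0.75. In the 8 of RNA processing and ribosome assembly, such as *Exosc10* and *Nol9*, they were 0.62 to 1.001 and -1.30 to -0.68. The 12 of traffic, cytoskeleton and centrosome, such as *Capzb* and *Rer1*, had 0.61 to 1.09 and -1.82 to -0.74, and the 6 ubiquitin enzymes and adaptors, such as *Usp48* and *Mib2*, had 0.64 to 1.18 and -1.51 to -0.82. The ranges of these 5 groups overlapped. The 9 genes of Wnt signalling, matrix and cell surface, among them *Dvl1*, *Ctnnbip1* and *Agrn*, spanned 0.63 to 4.78 and -6.07 to -0.62, where the ends in replicates 1 to 4 and 5 to 8 were those of *Ajap1*. Reads of the overlapping pairs *Luzp1* and *Kdm1a*, *Wrap73* and *Tprgl*, and *Ints11* and *Pusl1*, each on opposite strands, could not be told apart if counting ignored strand. The remaining 4, *Klhdc7a*, *Lrrc47*, *Lzic* and *2510039O18Rik*, had 0.75 to 3.30 and -1.05 to -0.61.

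*Ajap1*, which encodes a membrane protein of adherens junctions (ENSMUSG00000039546), was at 10.88, 2.12, 0 and 0 CPM in *GFP*-NSPC replicates 1 to 4 and at 22.15, 45.22, 67.73 and 58.84 CPM in *Dbx2*-NSPC replicates 1 to 4. In replicates 5 to 8 it was at 38.23, 27.91, 29.03 and 38.66 CPM in *GFP*-NSPCs and at 0 CPM in all 4 *Dbx2*-NSPC samples, so it was at least 30.7-fold lower there, with 3 reads per library as the floor. The groups did not overlap in either set. Its differences, 4.78 and -6.07, were the farthest from 0 among the 59 members of the stretch, and the first was 5.70 without *GFP*-NSPC replicate 1.

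*Klhdc7a* (ENSMUSG00000078234) was at 6.45, 0.71, 0.65 and 0.33 CPM in *GFP*-NSPC replicates 1 to 4 and at 22.15, 16.39, 13.03 and 13.99 CPM in *Dbx2*-NSPC replicates 1 to 4. Its levels in replicates 5 to 8 were 23.27 to 30.02 CPM in *GFP*-NSPCs and 11.48 to 14 CPM in *Dbx2*-NSPCs. Only *GFP*-NSPC replicates 2 to 4 were near the floor, and the difference of 3.30 in replicates 1 to 4 was 3.98 without *GFP*-NSPC replicate 1. *Otud3*, a deubiquitinase gene, was at 5.67 to 11.68 and 14.77 to 25.12 CPM in *GFP*-NSPCs and *Dbx2*-NSPCs of replicates 1 to 4, and at 16.45 to 21.61 and 5.87 to 8.1 CPM in replicates 5 to 8. *Eno1*, the glycolytic enolase, was at 16.62 to 26.59, 38.53 to 60.09, 42.02 to 56.01 and 23.02 to 27.02 CPM, in the same order, and its reads could be shared with the near-identical copy *Eno1b*, which was at 0 to 4.99 CPM. In all 3 genes the groups did not overlap in either set.

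The other 29 genes that were higher and then lower lay on many chromosomes, and 2 of them, *S100a10* and *S100a11*, were neighbours, on chromosome 3. *Ctsc*, the lysosomal protease cathepsin C (ENSMUSG00000030560, chr7), was at 0 CPM in all 4 *GFP*-NSPC samples of replicates 1 to 4 and at 23.76, 20.64, 9.44 and 7.18 CPM in *Dbx2*-NSPCs, at least 14.4-fold higher. In replicates 5 to 8 it was at 104.17, 83.74, 86.4 and 96.23 CPM in *GFP*-NSPCs and at 0.35, 1.24, 1.35 and 0 CPM in *Dbx2*-NSPCs. Its expression was thus near or under the floor in 1 transgene of each set, and not the same one. The genes most like it over the 16 samples, among those of at least 10 CPM, were *Rere* (Pearson's r = 0.96), *Ccnl2* (0.94) and *Tle4* (0.92), all members; such a likeness over samples that the rule had already sorted is a description.

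*S100a11* and *S100a10* encode small calcium binding proteins, of which the latter pairs with annexin A2 at the membrane. *S100a11* (ENSMUSG00000027907) was at 19.74, 15.17, 16.62 and 11.33 CPM in *GFP*-NSPC replicates 1 to 4, at 41.42, 67.07, 69.03 and 73.56 CPM in *Dbx2*-NSPC replicates 1 to 4, at 28.81, 22.08, 19.12 and 31.67 CPM in *GFP*-NSPC replicates 5 to 8, and at 0.35, 0, 0 and 0 CPM in *Dbx2*-NSPC replicates 5 to 8. *S100a10* was at 70.19 to 86.64, 152.13 to 171.61, 74.45 to 80.9 and 12.15 to 22.17 CPM in that order. *Anxa3*, an annexin of the same list, was at 35.27 to 46.99, 81.45 to 112.69, 9.22 to 14.39 and 1.35 to 6.34 CPM. In these 3 genes the groups did not overlap in either set, and *Dbx2*-NSPC replicates 5 to 8 were the lowest group in each. Of the list of 21 annexin, S100 and caveolin genes, 18 were tested and 8 were called for the gap between the sets' transgene differences, all 8 higher and then lower, against 9.44% of all tested genes in either direction. The list holds the 3 members, and the gap is the contrast the members were chosen by, so nothing is read from this count. The median differences of the list were 0.69 and -1.11, against -0.04 and -0.01 over all tested genes.

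*Rimbp2*, a scaffold gene of the active zone of synapses, was at 0, 0, 2.28 and 2.67 CPM in *GFP*-NSPC replicates 1 to 4 and at 34.67, 33.69, 32.24 and 21.17 CPM in *Dbx2*-NSPCs, with 8.87 to 13.98 and 1.81 to 2.8 CPM in replicates 5 to 8. *Grin2a*, an NMDA receptor subunit gene, was at 0.71 to 2.67 and 2.51 to 12.2 CPM in replicates 1 to 4 and at 36.88 to 48.21 and 14 to 28.51 CPM in replicates 5 to 8. *Ank3*, the gene of ankyrin G, was at 2.61 to 12.89 and 13.68 to 22.8 CPM in replicates 1 to 4 and at 43.22 to 68.68 and 0.9 to 1.41 CPM in replicates 5 to 8. The groups overlapped in 1 of these 6 comparisons, for *Grin2a* in replicates 1 to 4. *Stag3*, a cohesin subunit gene best known from meiosis, overlapped in replicates 1 to 4 (2.28 to 5.33 against 4.55 to 13.28 CPM) and not in replicates 5 to 8 (18.84 to 29.45 against 3.16 to 14.6 CPM).

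Among the matrix genes, *Fbln2*, which encodes the matrix protein fibulin 2, was at 56 to 97.97 CPM and 84.32 to 170.26 CPM in *GFP*-NSPCs and *Dbx2*-NSPCs of replicates 1 to 4, which overlapped, and at 13.3 to 18.1 and 2.71 to 6.21 CPM in replicates 5 to 8. *Timp1*, a metalloproteinase inhibitor gene, was at 10 to 20.1 and 28 to 35.81 CPM in replicates 1 to 4, but at 0 to 0.92 and 0 CPM in replicates 5 to 8. Both transgenes were at or under 3 reads there, so its second difference rests on values under the floor and no fold is given; it overlaps *Syn1* on the opposite strand, and the strand used in counting is not given in the sources used here. In the other 18 of the 29 genes the differences ran within 0.63 to 2.46 and -4.31 to -0.61. They include *Pou3f1*, *Tle4*, *Smyd5* and the RNA-binding protein gene *Bicc1*, the cytoskeletal and signalling genes *Flna*, *Rhoj*, *Pde1c*, *Ddit4l* and *Rpgr*, the membrane genes *Piezo1*, *Cxadr*, *Pcdhb19*, *Slc29a3* and *Pqlc1*, the matrix gene *Smoc1*, and *Bex4*, *Mrpl33* and *3632451O06Rik*.

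The 46 genes that were lower in *Dbx2*-NSPCs in replicates 1 to 4 and higher in replicates 5 to 8 held 13 adhesion and synapse genes, with differences of -2.70 to -0.61 and 0.87 to 4.51. *Pcdh10*, a protocadherin (ENSMUSG00000049100), was at 10.88, 48.67, 55.07 and 53.65 CPM in *GFP*-NSPC replicates 1 to 4 and at 5.14, 3.95, 5.54 and 5.74 CPM in *Dbx2*-NSPCs. In replicates 5 to 8 it was at 0, 0.31, 0 and 0 CPM in *GFP*-NSPCs and at 4.58, 4.04, 6.77 and 7.77 CPM in *Dbx2*-NSPCs. *Dbx2*-NSPCs were at like levels in both sets, and *GFP*-NSPCs were high in one set and under the floor in the other. With *GFP*-NSPC replicate 1 at 10.88 CPM, the difference of -2.70 in that set was -3.25 without it. The genes most like *Pcdh10* over the 16 samples were *St6galnac5* (Pearson's r = 0.94), *Vegfb* (0.93), which was no member, and *Vcam1* (0.93).

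*Cadm2*, a synaptic adhesion gene (ENSMUSG00000064115), was at 58.82, 80.77, 85.37 and 81.31 CPM in *GFP*-NSPC replicates 1 to 4, at 23.12, 10.02, 11.72 and 20.09 CPM in *Dbx2*-NSPC replicates 1 to 4, at 1.66, 0.31, 0 and 0.82 CPM in *GFP*-NSPC replicates 5 to 8, and at 5.63, 7.77, 5.87 and 4.39 CPM in *Dbx2*-NSPC replicates 5 to 8. *Nlgn3*, a neuroligin of the postsynaptic membrane (ENSMUSG00000031302), was at 23.77, 56.43, 62.89 and 64.98 CPM, then 23.44, 14.87, 11.4 and 9.33 CPM, then 6.1, 1.84, 1.37 and 1.64 CPM, and then 41.18, 49.39, 55.98 and 35.11 CPM, in the same order. Neither gene overlapped between the transgenes in either set, and *Nlgn3* reached a similar level in *GFP*-NSPC replicates 2 to 4 and *Dbx2*-NSPC replicates 5 to 8. *Pcdh11x*, *Pcdh7* and *Nrxn3*, a presynaptic neurexin gene, had no overlap in either set either. *Syndig1l* and *Dlgap1*, the latter a scaffold gene of the postsynaptic density, overlapped in replicates 1 to 4, where *GFP*-NSPC replicate 1 was at 8.46 and 6.04 CPM against at least 27.86 and 25.39 CPM in *GFP*-NSPC replicates 2 to 4. Without that sample the difference of *Syndig1l* went from -1.33 to -1.82 and that of *Dlgap1* from -1.20 to -1.78.

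**Figure D4:**
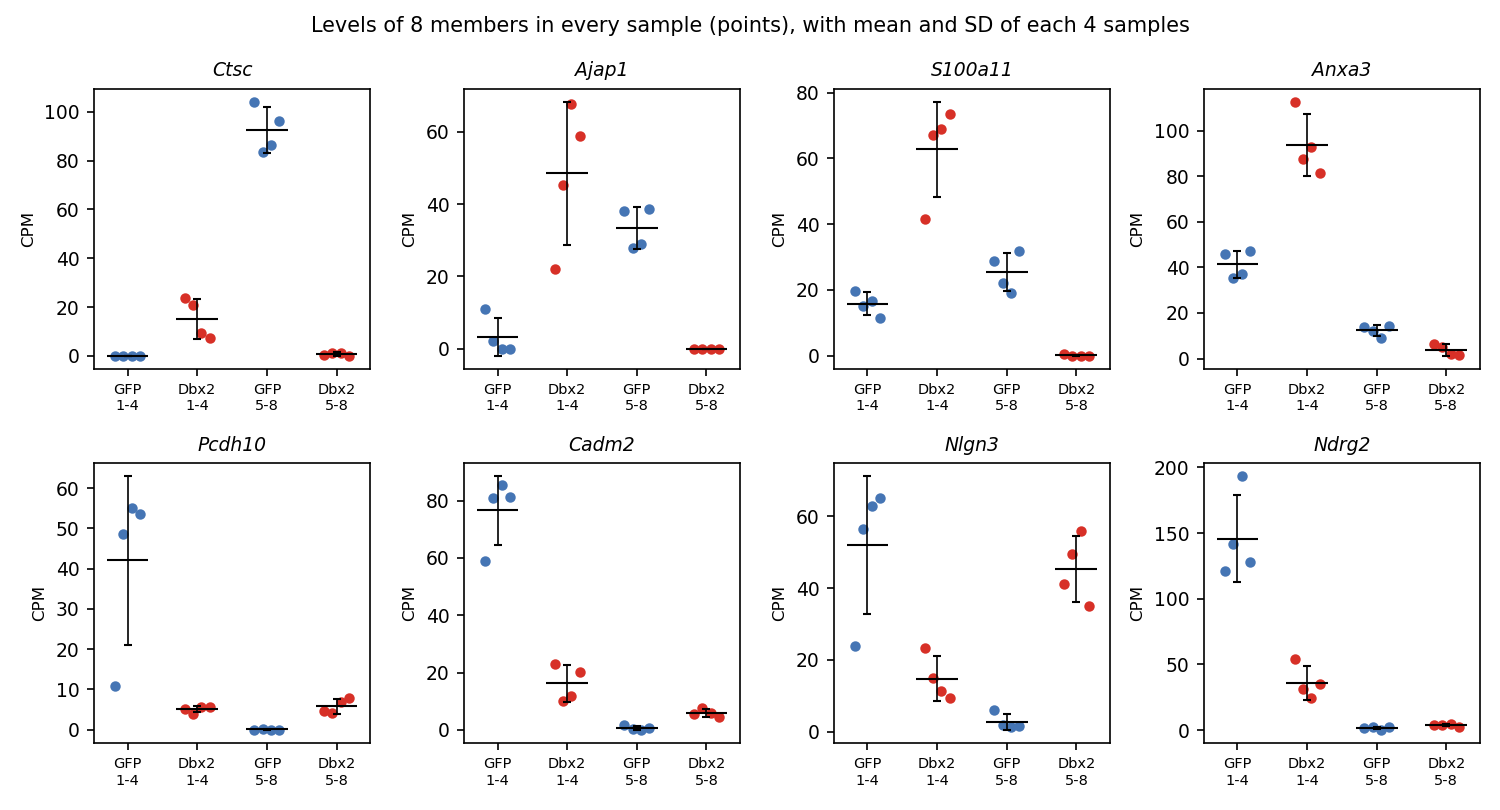
CPM of 8 members in each of the 16 samples, in columns for *GFP*-NSPC and *Dbx2*-NSPC replicates 1 to 4 and 5 to 8; points are samples, and bars are the mean and SD of 4. In the upper row *Ctsc*, *Ajap1*, *S100a11* and *Anxa3* are higher with *Dbx2* in replicates 1 to 4 and lower in 5 to 8; in the lower row *Pcdh10*, *Cadm2*, *Nlgn3* and *Ndrg2* go the other way, with *GFP*-NSPC replicate 1 below the other 3 for *Pcdh10*, at 10.88 CPM, and *Nlgn3*, at 23.77 CPM.

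Genes of glial transport, lipid handling and metabolism formed the next group, of 11, with differences of -2.04 to -0.65 and 0.63 to 1.77. *Apoe* (ENSMUSG00000002985) was at 3140.75, 2037.21, 2125.74 and 1453.94 CPM in *GFP*-NSPC replicates 1 to 4, at 1376.4, 669.22, 593.3 and 559.74 CPM in *Dbx2*-NSPC replicates 1 to 4, at 283.16, 238.94, 141.39 and 200.69 CPM in *GFP*-NSPC replicates 5 to 8, and at 400.2, 356.59, 357.55 and 403.14 CPM in *Dbx2*-NSPC replicates 5 to 8. *Ndrg2*, an astroglial gene, was at 120.86 to 193.54 and 24.1 to 53.94 CPM in replicates 1 to 4 and at 0 to 2.15 and 2.7 to 4.51 CPM in replicates 5 to 8. The transgenes did not overlap in either set for either gene. The difference of *Ndrg2* in replicates 5 to 8, 1.39, was 0.82 without *GFP*-NSPC replicate 7. *Gsta4*, a glutathione transferase gene, was at 15.64 to 19.33 and 3.26 to 6.42 CPM, then 4.1 to 6.65 and 11.8 to 18.06 CPM. Of the list of stem cell and astroglial markers, only *Apoe* of the 20 genes at 10 CPM was a member, against 134 of all 8651 genes at 10 CPM.

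The summed level of that marker list was 10566 to 12939 CPM in *GFP*-NSPCs and 7547 to 9622 CPM in *Dbx2*-NSPCs of replicates 1 to 4, and 7581 to 8118 and 6887 to 7422 CPM in replicates 5 to 8. The sum of the neuroblast and neuronal list was 4073 to 4890 and 3368 to 3878 CPM, then 5427 to 5809 and 4007 to 4245 CPM. Both sums were lower in *Dbx2*-NSPCs in both sets, without overlap, but abundant genes carry a sum and single genes went both ways. In the neuroblast and neuronal list, *Dcx* had group means of 0.08 to 4.74 CPM, and *Stmn2*, *Dlx5* and *Dlx6* were at 0. *Sox11* had group means of 709 to 1051 CPM and *Map2* of 700 to 1246 CPM. These genes were named after their values had been seen, and the sum is not read as a content of neuroblasts. Of 23 tested genes of the first list, 11 were lower and 6 higher in both sets, and *Gfap*, *Aldoc* and *Clu*, named after their values had been seen, were among the higher. Of 20 tested genes of the second list, 8 were lower and 3 higher in both sets, and its median difference was -0.58 in replicates 1 to 4 and 0.03 in replicates 5 to 8. Fewer cells of a type and less RNA per cell cannot be told apart in bulk RNA, and the part of cell composition in the members' levels was not tested.

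In the Notch pathway, 2 of 16 genes at 10 CPM were members, both lower and then higher, against 134 of all 8651 genes at 10 CPM. *Hes5* (ENSMUSG00000048001) was at 167.19, 146.02, 190.94 and 151.29 CPM in *GFP*-NSPC replicates 1 to 4 and at 208.05, 31.56, 42.98 and 65.66 CPM in *Dbx2*-NSPCs. In replicates 5 to 8 it was at 45.44, 31.9, 30.05 and 25.5 CPM in *GFP*-NSPCs and at 40.13, 37.9, 93.9 and 82.72 CPM in *Dbx2*-NSPCs. The groups overlapped in both sets, and *Dbx2*-NSPC replicate 1 was the highest of all 16 samples. *Dll3* (ENSMUSG00000003436) was at 8.86 to 23.79 and 4.55 to 12.84 CPM in replicates 1 to 4, which overlapped, and at 1.64 to 6.1 and 9.5 to 14.45 CPM in replicates 5 to 8, which did not. Of 19 tested genes of the pathway, 4 were called for the gap, all 4 lower and then higher, against 9.44% of all tested genes. They include the chosen members, and nothing is read from the count. The median differences of the list were -0.15 and 0.29. The other transcription factor genes were *En1* and *Dmrta2*, which pattern the embryonic brain, and *Srebf1*, the regulator of lipid synthesis genes. *Srebf1* was at 7.25 to 13.05 CPM in *GFP*-NSPC replicates 1 to 4 and at 10.92, 7.28, 4.88 and 0 CPM in *Dbx2*-NSPCs; its difference of -1.39 was -0.40 without *Dbx2*-NSPC replicate 4, and it was then no member. *Srebf1* overlaps *Rai1* on the opposite strand, as *St6galnac5* does *Pigk*.

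The 9 genes of neuronal vesicles and signalling had differences of -1.26 to -0.62 and 0.64 to 4.22. *Nnat*, an imprinted gene active in the developing brain, was at 350.49 to 724.98 and 213.51 to 273.41 CPM in replicates 1 to 4 and at 3.7 to 13.85 and 12.83 to 36.96 CPM in replicates 5 to 8, where the groups overlapped; it lies within *Blcap*, on the opposite strand. The others were *Rps6ka6*, *Pak3*, *Cntfr*, *Rasl10b*, *Sv2a*, *Nsg2*, *Nrgn* and *Rprm*. The sialyltransferase genes *St6galnac5* and *St6gal1*, whose products add sialic acid to glycans, had differences of -1.54 and -0.62, then 1.63 and 1.01. Without *Dbx2*-NSPC replicate 4 the first difference of *St6gal1* was 0.06, of the opposite sign. *Jmjd8*, with 17.73 to 37.14 and 3.23 to 8.03 CPM in replicates 1 to 4 and 2.39 to 4.91 and 15.19 to 22.88 CPM in replicates 5 to 8, did not overlap in either set, but it overlaps *Stub1* on the opposite strand, a gene of 271 CPM on average. The others not placed in a group were *Miat*, a noncoding RNA gene, *C77370*, *4930523C07Rik*, *Rpl22l1* and *Tmem229b*.

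The level between the sets, which the differences of the rule had not used, was then tested with limma in replicates 1 to 4 against 5 to 8 over both transgenes. A gene could reach the mean of 10 CPM through 1 set alone, and 18 of the 134 members were under 10 CPM on average in the other set, among them *Ndrg2*, *Cadm2*, *Pcdh10*, *Timp1*, *Anxa3*, *Grin2a* and *Ctsc*. Such a gene had to differ between the sets, so the members and the background are compared over genes of at least 10 CPM in each set, a choice made after seeing the data. Of 8235 such genes 35.4% were called at an adjusted p under 0.05, and of the 116 such members 55 were called, 47.4%. Where a single group of samples departs, both a transgene difference and the set difference move. Choosing genes with large transgene differences can thus raise the share called by itself. The shares of the members are a description, and nothing is read from their distance to the background. The 37 that were lower and then higher had 26 calls, 70.3%, of which 23 were higher in replicates 1 to 4, and a median of 0.88 against -0.04 over the 8235 genes. The 21 higher and then lower outside the end of chromosome 4 had 14 calls, 4 higher in replicates 1 to 4 and 10 higher in replicates 5 to 8. The 58 at the end of chromosome 4 had 15 calls, 25.9%, 8 and 7 in the directions, and a median of 0.07. Over all 12533 tested genes 33.6% were called, 15.6% as higher in replicates 1 to 4 and 18% as higher in replicates 5 to 8, and of all 134 members 71 were called, 45 and 26.

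Among single members at 10 CPM in each set, *Nnat* was higher in replicates 1 to 4 by 4.71 on the log2(CPM + 0.5) scale (standard error 0.212, limma adjusted p = 1.32e-14), *Fbln2* by 3.47 (0.163, adjusted p = 2.33e-14) and *S100a11* by 3.04 (0.184, adjusted p = 2.59e-12). *Apoe* was higher there by 2.15 (0.161, adjusted p = 1.46e-10), *Pcdh11x* by 1.81 (0.136, adjusted p = 1.51e-10), *Pcdh7* by 1.70 (0.138, adjusted p = 5.55e-10) and *S100a10* by 1.59 (0.0967, adjusted p = 2.65e-12). In *Nnat*, *Fbln2* and *Apoe* the set difference was larger in size than either transgene difference. All these values are averages over the transgenes. In *GFP*-NSPCs alone, *S100a10* had means of 77.25 CPM in replicates 1 to 4 and 76.57 CPM in replicates 5 to 8. *S100a11* had 15.7 and 25.4 CPM there, the opposite direction. The set differences of these genes thus came from *Dbx2*-NSPCs, at 161 and 17.7 CPM for *S100a10* and 62.8 and 0.0875 CPM for *S100a11*.

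Members under 10 CPM in 1 set are given with no p: *Ndrg2* was at 4.74, *Cadm2* at 3.76, *Anxa3* at 3.20 and *Pcdh10* at 2.93, and *Grin2a* at -2.89, *Ctsc* at -1.92, *Klhdc7a* at -1.87 and *Stag3* at -1.36. *Timp1* was at or under 3 reads in all 8 samples of replicates 5 to 8, and its value there depends on the pseudocount. *Ajap1* was at 1.08 with a standard error of 0.437 and missed the threshold (limma adjusted p = 0.0600), which it passed in 5 alternatives, among them edgeR at 3.34 and DESeq2. *Ank3* (0.29, adjusted p = 0.371), *Otud3* (0.08, adjusted p = 0.752) and *Eno1* (-0.10, adjusted p = 0.556) missed it too. *Hes5* was higher in replicates 1 to 4 by 1.24 (limma adjusted p = 5.72e-04).

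**Figure D5:**
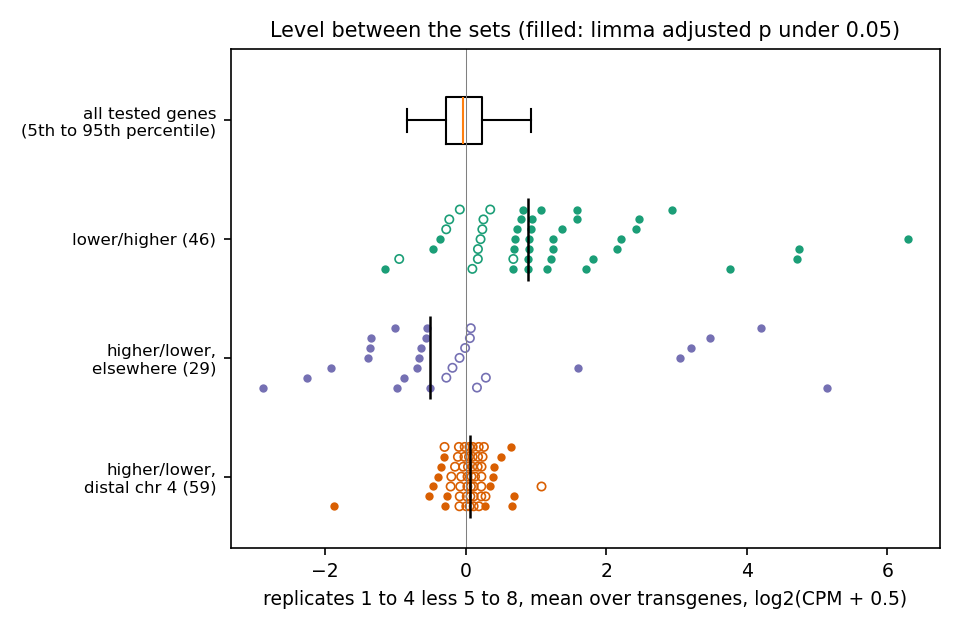
Level of each member in replicates 1 to 4 less 5 to 8, averaged over the transgenes, on the log2(CPM + 0.5) scale, by group; filled points passed an adjusted p under 0.05 in limma, black lines are medians, and the box shows the quartiles and the 5th to 95th percentile of all tested genes. The genes at the end of chromosome 4 lie around 0.07, whereas those lower and then higher have a median of 0.89, and all tested genes -0.03. The 18 members under 10 CPM in 1 set are drawn too, and nothing is read from their fill. Over genes of at least 10 CPM in each set the medians were 0.07 and 0.88, against -0.04 over 8235 genes.

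The order of the 4 groups of samples is a description, since the rule fixed part of it. In a gene lower and then higher, the highest mean had to be in *GFP*-NSPC replicates 1 to 4 or *Dbx2*-NSPC replicates 5 to 8. The lowest had to be in *GFP*-NSPC replicates 5 to 8 or *Dbx2*-NSPC replicates 1 to 4. For genes higher and then lower it was the reverse. Of the 46 genes lower and then higher, 33 were highest in *GFP*-NSPC replicates 1 to 4 and 39 lowest in *GFP*-NSPC replicates 5 to 8. The 46 include 9 genes under 10 CPM in 1 set. The median gap between *GFP*-NSPC replicates 1 to 4 and 5 to 8 was 1.99 in these genes, and that between the *Dbx2*-NSPC samples of the sets -0.28. The rule makes the first gap the larger in every such gene, so nothing is read from the contrast. In the 59 genes at the end of chromosome 4, *Dbx2*-NSPC replicates 1 to 4 and *GFP*-NSPC replicates 5 to 8 were close, with a median gap of -0.04, and *GFP*-NSPC replicates 1 to 4 were 0.16 above *Dbx2*-NSPC replicates 5 to 8. Without *GFP*-NSPC replicate 1 that gap had a median of 0.000226, with 30 of the 59 genes higher in *GFP*-NSPCs. In the 29 others, 19 were highest in *GFP*-NSPC replicates 5 to 8 and 19 lowest in *GFP*-NSPC replicates 1 to 4.

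How the members varied among replicates, after each sample was set against the mean of its 4, was not used by the rule either, and in the stretch on chromosome 4 it rested on 1 library. Pairs of the 59 genes at the end of chromosome 4 had a median Pearson's r of 0.40 over the 16 samples, and pairs of the 51 other genes of the stretch 0.34. Without *GFP*-NSPC replicate 1 the medians over the 15 samples were 0.02 and 0.04, against 0.005 over all pairs of genes of at least 10 CPM. For the 46 genes lower and then higher the median was 0.11 with that library and 0.10 without it, and between the 59 and the 46 it was -0.13 and -0.03. These values are a description, with no p.

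Across 29 gene lists, 13 held members and 16 held none, and 20 of 793 matched genes were members. Over all genes of at least 10 CPM it was 134 of 8651, and list genes under 10 CPM could not be members. The ependymal, microglial and endothelial lists each had only 1 gene at 10 CPM. There were 2 members among 37 adhesion and guidance genes at 10 CPM, 2 among 26 matrix and integrin genes, and 3 among 12 annexins, S100 proteins and caveolins. These counts are a description, and nothing is read from them. The lists of oligodendrocyte lineage, ependymal, microglial, endothelial and proliferation markers, of BMP, EGF and FGF, Wnt and IGF signalling, of homeobox factors, interferon response, p53 targets, immediate early genes, ATF4 targets, mitochondrially encoded genes and clock genes had 0 members.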

How the data were processed

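The authors sequenced 3′ end libraries made from 100 ng of total RNA, trimmed reads with bbduk, aligned them with STAR 2.5.0a to GRCm38 with an Ensembl annotation and deposited a table of CPM per gene, rounded to 2 decimals; how reads were counted, and on which strand, is not given in the sources used here. All 16 columns were used and 0 were left out. Whole reads were recovered from the deposited CPM steps (100% of values above 0 within rounding) for the count tests.

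Positions are from GENCODE M21 (GRCm38) and upstream sequences from RefSeq. Genes above 1 CPM in at least 4 samples, 12533, were fitted on log2(CPM + 0.5) with 1 mean for each of the 4 combinations of transgene and set (limma 3.58.1, R 4.3.3, eBayes with trend, 2-sided, Benjamini-Hochberg, 0.05). This scale understates changes of low genes. The replicates are samples the labels number separately. By the study's account the 8 samples of each transgene came from 2 lines, so they include repeat cultures of a line. The p-values measure the spread between samples and not that between lines. The study's covariate, the cell line, is not in the labels and was not fitted. The fit was tested on simulated data. The members and gene lists were chosen with earlier results of these data known. Named were *Dbx2*, in each direction the 12 members with the largest smaller difference, members in the lists, and the 2 genes nearest the threshold on each side; others are given by role. Some genes that this rule picks are not reported here. Alternatives were pseudocounts of 0.1 and 2, TMM, quantile and median-of-ratios scaling, other filters and thresholds, leaving out each sample, a replicate block, and count tests of the whole reads in edgeR 4.0.16 and DESeq2 1.42.0. Tables and plots used Python 3.11.15, numpy 2.4.6, pandas 2.3.3 and matplotlib 3.10.9.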

Additional observations from a re-analysis of the deposited data

Results flagged for a closer look

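Of 157 groups of 4 samples over 40 named genes, 14 had a sample whose gap to the nearest other, divided by the range of the group, was above Dixon's critical value for 4 samples; chance alone flags about 1 group in 20.

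In *GFP*-NSPC replicates 1 to 4, replicate 1 was far from the others for *Klhdc7a* (6.45 CPM against 0.33 to 0.71) and *Pcdh10* (10.88 against 48.67 to 55.07), and replicate 3 for *Rprm* (62.56 against 76.31 to 78.16). In *Dbx2*-NSPC replicates 1 to 4, replicate 1 was far above the others for *Apoe* (1376.4 CPM against 559.74 to 669.22) and *Dll3* (12.84 against 4.55 to 5.54), and replicate 4 below them for *Rprm* (35.16 against 51.05 to 53.11).

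In *GFP*-NSPC replicates 5 to 8, replicate 5 was apart for *Grin2a* (48.21 CPM against 36.88 to 38.03), *Nlgn3* (6.1 against 1.37 to 1.84) and *Stag3* (18.84 against 27.66 to 29.45), and replicate 6 for *Pcdh10* (0.31 against 0, a value of 1 read). In *Dbx2*-NSPC replicates 5 to 8, replicate 5 was apart for *Jmjd8* (22.88 CPM against 15.19 to 15.84), *Ttyh1* (180.21 against 144.17 to 149.1) and *S100a11* (0.35 against 0, also 1 read), and replicate 8 for *Otud3* (8.1 against 5.87 to 5.98).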

How the results depend on the processing

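The rule gave 134 genes as written, 261 with a minimum difference of 0.4 (163 higher and then lower, 98 lower and then higher) and 29 with a minimum of 1 (16 and 13). With a mean of at least 20 CPM, 28 genes were lower and then higher. Leaving out each sample in turn gave 122 to 150 members, 77 to 108 higher and then lower and 41 to 51 lower and then higher, and 81 of the 134 were kept in all 16 repeats. Among the genes named by the naming rule above, *Acap3*, *Csmd2*, *Dll3*, *Peak1*, *Rimbp2*, *Rprm*, *Srebf1* and *Timp1* each ceased to be members when some single sample was left out. Members given by role did so too, among them *Kdm1a*, *Exosc10*, *Capzb*, *Rer1*, *Mib2*, *Agrn*, *Flna*, *Rhoj*, *En1*, *Cntfr*, *Sv2a* and *St6gal1*. Of the members, 65 to 75 were called between the sets when a sample was left out and 62 to 72 under the other settings, against 71. Of 213 alternative counts over 8 results, 206 stayed within 1.5 times the reported value.

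Of 945 alternative set differences of 35 named members, 6 changed sign and none of these was past the threshold: the Ank3 set difference was -0.00510 with a pseudocount of 2, the Dlgap1 set difference -0.00248 without *GFP*-NSPC replicate 4 (up to 0.46 without *GFP*-NSPC replicate 1), the Otud3 set difference -0.0141 without *GFP*-NSPC replicate 1 (up to 0.15 without *GFP*-NSPC replicate 4), and the Rimbp2 set difference -0.45 with a pseudocount of 0.1 and -0.14 and -0.17 without *GFP*-NSPC replicates 3 and 4 (up to 0.27 without *GFP*-NSPC replicate 1). The call of *Dll3* was lost in 13 alternatives, and calls were gained by *Ajap1* in 5, *Srebf1* in 3, *Syndig1l* in 2 and *Dlgap1* in 1. The main fit did not pair the samples by replicate number. Residuals of same-numbered samples correlated weakly, at -0.0074 to 0.12, with only replicate 1 above 0.1. With the other numbers of the same set they correlated at -0.035 to 0.0027 on average. With a random replicate block, 3955 genes were called between the sets against 4213, and 68 members. A fixed block called more genes between the transgenes, 2755 against 2563 in replicates 1 to 4 and 2786 against 2595 in replicates 5 to 8. For the gap between these differences it called 1308 against 1183. The depth limits genes near 3 reads, such as *Timp1* and *Pcdh10* in replicates 5 to 8.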
